A study of Homo sapiens with 4 samples.

Results

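Histone acetyltransferases place acetyl groups on histone lysines and histone deacetylases (HDACs) remove them, and both act mostly as subunits of large complexes that sequence-specific transcription factors bring to DNA. This account describes the binding of TBX3, a T-box transcription factor best known as a repressor, at 10 genes of this machinery. The acetyltransferase genes were KAT2A and KAT2B, which encode the related catalytic subunits GCN5 and PCAF, and EP300 and CREBBP, which encode the coactivators p300 and CBP. The deacetylase genes were HDAC1, HDAC2 and HDAC3 of class I, the catalytic subunits of corepressor complexes such as NuRD, SIN3 and NCoR, and HDAC4, HDAC7 and HDAC9 of class IIa, which bind MEF2 transcription factors. All peaks whose deposited nearest gene was one of these were taken, at any distance. That gave 19 of 32479 peaks in replicate 1 and 20 of 40494 peaks in replicate 2, under 4 of the 10 genes, out of 12468 gene names in the lists.

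The peaks came from chromatin immunoprecipitation followed by sequencing in 501mel, an established human melanoma line. The 2 ChIP samples were precipitated with the anti-HA antibody 12CA5 from cells carrying TBX3 with a triple HA tag (TBX3-3xHA), and the 2 input samples of the same line, which were not analysed here, had no precipitation. The labels give no treatment, no time, no number of clones and no account of how the tagged protein was expressed, nor whether the replicates came from separate cultures. There was a single ChIP condition, so no comparison between conditions was made. The samples held no ChIP from cells without the tag, so how much of the signal depends on the tagged protein was not tested. The peak lists hold no expression values, so neither the melanoma identity of the cells nor the expression of these genes could be checked from them.

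Each entry was the summit of a peak, a single base on the hg38 build, with a score written by the authors. The score's scale is not given in the sources used here, so scores were read only within their own list, as a rank from the highest. Summits of the replicates that were each other's nearest and at most 200 bp apart are called a recurrent site. The genes were chosen by their measured peaks (position, nearest gene, distance to the transcription start, annotation, score and recurrence). KAT2B in particular was named for the strength of its site. All values below therefore describe the genes, and none was tested. Read depth is unknown, and the lists differ in length.

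Recurrent TBX3 summits were found under KAT2B, HDAC9 and HDAC2. KAT2B had 7 summits in each list and 5 recurrent sites. HDAC9 had 9 summits in replicate 1, 11 in replicate 2 and 7 recurrent sites, and HDAC2 had 2 in each list, both recurrent. EP300 had 1 summit, in replicate 1, which did not recur. The other 6 genes, KAT2A, CREBBP, HDAC1, HDAC3, HDAC4 and HDAC7, were named at no peak of either list. Thus 4 of the 10 genes were named in replicate 1, where 34.1% of protein-coding genes were, and 3 in replicate 2, where 38.4% were. A recurrent site carried the name of 3 of the 10, against 28.6% of protein-coding genes, and 1 of the 10 had one within 10 kb of a transcription start site (TSS), against 10.1%.

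**Figure D1:**
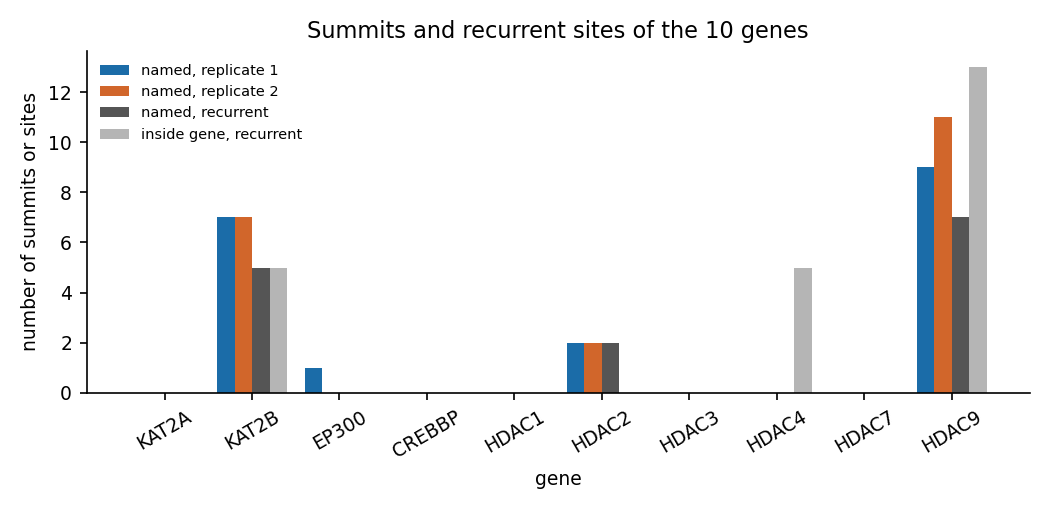
Bars give, for each of the 10 genes on the x axis, the number of summits deposited under its name in each replicate, of recurrent sites under its name, and of recurrent sites inside the gene whatever name they carry. KAT2B and HDAC9 have the highest bars, HDAC2 has recurrent sites only outside its gene, and HDAC4 has 5 inside its gene and none under its name.

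Of the member peaks, 14 of 19 recurred in replicate 1 (73.7%, 95% Wilson interval 51.2% to 88.2%) and 14 of 20 in replicate 2 (70.0%, 48.1% to 85.5%). These are the same 14 sites seen from either list, and recurrence was among the values that chose the genes. The intervals cover counting error only and take the peaks as independent, although most lay under KAT2B and HDAC9. All peaks recurred at 69.9% and 56.1%, given as background. The summits of a recurrent member site lay a median of 35 bp apart, against 28 bp over all 22702 recurrent sites, and ranged from the same base to 156 bp. The peaks lay mainly in introns, 15 of 19 in replicate 1 (78.9%, against 39.4% of all peaks) and 16 of 20 in replicate 2 (80.0%, against 40.7%). None was annotated as intergenic, the class of 53.3% and 52.8% of all peaks. Annotation was also among the values that chose the genes, so the shares of all peaks are given as background. Promoters held 2 member peaks in each list (2.33% and 2.12% of all peaks were of this class). Exons held 1 in each (1.15% and 1.02% of all peaks), as did 3′ UTRs (0.588% and 0.568%). Repeats held 3 member peaks in each list (15.8% and 15.0%, against 43.3% of all peaks in either list).

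Since no genome was at hand, sequence is shown only for promoters with a member summit inside or close by. The RefSeq windows (GRCh38.p14, 250 bases before to 50 after a start) matched all 10 genes, with 19 windows. Summits fell inside 3 of these windows, all of HDAC9. The bases before the start are given here for 2 of the HDAC9 windows, the third overlapping the first, and for the HDAC4 window nearest a recurrent site. The KAT2B window is not printed because it lies downstream of the deposited TSS of that gene. Each is written 5′ to 3′ on the strand of its gene, and capitals mark the 10 bases on either side of a summit together with the summit itself.
HDAC9, chr7:18495460-18495709, plus strand, replicate 2 summit: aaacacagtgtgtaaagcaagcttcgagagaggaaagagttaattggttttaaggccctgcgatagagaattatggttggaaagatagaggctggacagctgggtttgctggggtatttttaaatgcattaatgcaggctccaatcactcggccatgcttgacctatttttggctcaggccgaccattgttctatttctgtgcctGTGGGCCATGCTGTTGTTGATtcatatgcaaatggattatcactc
HDAC9, chr7:18496012-18496261, plus strand, replicate 1 summit: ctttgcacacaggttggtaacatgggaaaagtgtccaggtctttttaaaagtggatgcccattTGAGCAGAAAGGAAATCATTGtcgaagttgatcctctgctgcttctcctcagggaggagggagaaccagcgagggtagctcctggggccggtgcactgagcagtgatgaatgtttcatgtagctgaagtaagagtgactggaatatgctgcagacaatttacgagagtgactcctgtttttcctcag
HDAC4, chr2:239274782-239275031, minus strand, no summit inside: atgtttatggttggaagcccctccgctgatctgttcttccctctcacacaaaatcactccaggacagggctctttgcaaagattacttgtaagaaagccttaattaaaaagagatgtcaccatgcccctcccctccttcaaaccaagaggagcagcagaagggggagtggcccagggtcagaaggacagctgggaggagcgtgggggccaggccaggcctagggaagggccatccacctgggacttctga

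The windows were searched on both strands for exact matches. The T-box element AGGTGTGA and its core GGTGTGA, which the element contains, were in none of the 19 windows, and 0.986% and 3.46% of all 34796 promoter windows held them. The E-box CACGTG was in 1, the window at the 5′ end of HDAC4, where no summit lay (7.20% of all windows). The AP-1-like pattern TGANTCA, in which N was any base, was in 2, the overlapping HDAC9 windows around the replicate 2 summit (7.73%). There it read tgattca, with t at N, starting 28 bases before the first of these starts and so partly within the capitals above. The M-box TCATGTG (2.93%) and the cAMP response element TGACGTCA (1.84%) were in none. GC content of the printed bases was 44% and 48% at HDAC9 and 54.4% at HDAC4, below the median of 58% over all windows, and that of the same bases at KAT2B was 80.8%, above it.

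KAT2B encodes PCAF, an acetyltransferase of SAGA-type complexes, and it held the highest scores of the 10 genes in both lists. In both lists the strongest KAT2B summit was the same base of chromosome 3, 20081403, inside intron 2 of 17 and 41371 bp downstream of the deposited TSS. Its score was 700.9 in replicate 1 and 773.0 in replicate 2. It ranked 4 in each list, and 2 among the 12807 intronic peaks of replicate 1 and the 16482 of replicate 2. It lay in no annotated repeat. The next KAT2B summit of each list ranked 3525 in replicate 1 and 10763 in replicate 2. No further summit was found in the gene for 60617 bp downstream in replicate 1 and 60634 bp in replicate 2, so it closed the group of KAT2B summits towards the 3′ end.

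A second KAT2B feature was a pair of recurrent sites at the start of the gene. The deposited annotation placed summits at 20040042 and 20040048 in the promoter, 10 bp and 16 bp from the deposited TSS, with a score of 29.65 in replicate 1 (rank 8147) and 33.13 in replicate 2 (rank 10763). RefSeq places the start further downstream, so the same summits lay 404 bp and 398 bp upstream of it and outside its window. Summits at 20041570 and 20041589 in intron 1 scored 65.91 (rank 3525) and 25.26 (rank 13213), a place among the highest 10.9% of replicate 1 and the highest 32.6% of replicate 2. The order of these neighbours was therefore not the same in the replicates: the intronic site was the stronger in replicate 1 and the promoter site in replicate 2.

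Between the promoter and the strongest site, weaker KAT2B summits recurred at 2 places and did not recur at 4. Summits at 20067384 and 20067322 in intron 1 scored 14.91 and 17.42 (ranks 14270 and 17266). Summits at 20072614 and 20072675 in intron 2 scored 12.41 and 26.98 (ranks 16214 and 12524). Replicate 1 alone had summits at 20054897 (score 4.501) and 20057407 (5.765, in an L2 repeat), both low in its list. Replicate 2 alone had summits at 20065062 (6.906) and at 20073969, whose score of 32.13 (rank 10882) was the highest among the unshared member peaks of that list, 1355 bp from the nearest replicate 1 summit. The 5 recurrent sites spanned 41361 bp. Of all 22702 recurrent sites 21.7% lay in a run of 5 at least as tight, and 9.14% of the 18929 outside satellite repeats did. At least 5 recurrent sites carried the name of 2.69% of protein-coding genes.

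One more recurrent site lay inside KAT2B without carrying its name. Summits at 20142020 and 20142037 in intron 13 of 17 scored 14.06 and 16.52 and were deposited under the microRNA gene MIR3135A. The plot of scores along KAT2B shows the gap between it and the strongest site.

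**Figure D2:**
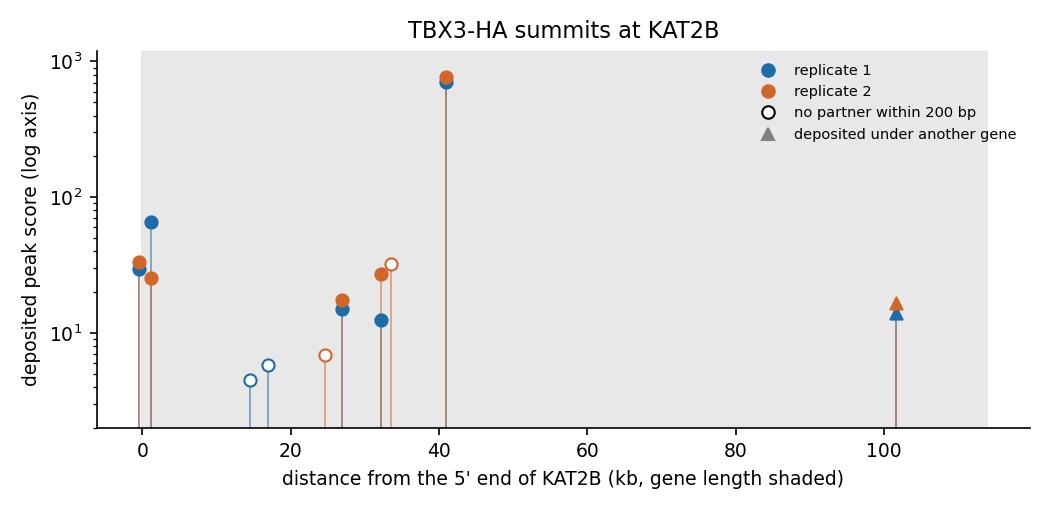
Each point is a summit at its distance in kb from the RefSeq 5′ end of KAT2B (x axis, the gene shaded) and its deposited score (y axis, log scale, read only within a replicate). The site in intron 2, at 700.9 and 773.0, stands above all others, and the open points, which have no partner, lie between the promoter and that site.

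KAT2A, the paralog of KAT2B, had no such pattern. Its gene of 8257 bp held no summit, and the nearest was 127370 bp away in replicate 1 and 34314 bp in replicate 2. EP300 had a single summit, at 41117711 on chromosome 22 in exon 2 of 31, with a score of 8.543 (rank 20843, in the lower part of the list). Replicate 2 had no summit within 202059 bp of it. CREBBP, the paralog of EP300, held none, and the nearest summits were 172442 bp and 172273 bp away.

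Among HDAC1, HDAC2 and HDAC3, the class I deacetylases chosen here, summits were near HDAC2 alone and none lay inside a gene. HDAC2 had 2 recurrent sites (12.8% of protein-coding genes had at least 2), both upstream of its start and in introns of a non-coding transcript on chromosome 6. The stronger site lay at 114011801, 40606 bp upstream, with a score of 50.82 (rank 4709), and 114011738, 40543 bp upstream, with 105.4 (rank 3239). These summits were 63 bp apart and were annotated to different repeats, LTR7B in replicate 1 and LTR14 in replicate 2. The weaker had summits at 114007742 and 114007750, 8 bp apart, with a score of 10.04 (rank 18817) in replicate 1 and 44.20 (rank 8224) in replicate 2. Its place moved from the highest 57.9% of its list to the highest 20.3%. HDAC1 had its nearest summits 114312 bp and 114266 bp from the gene, and HDAC3 96005 bp and 95949 bp.

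HDAC9 encodes a class IIa deacetylase, and it is a long gene with several promoters and with short isoforms that lack the deacetylase domain. It had the most recurrent sites of the 10 genes, 7 under its name, and at least 7 were found for 1.20% of protein-coding genes. On chromosome 7 the strongest lay at 18734876 in replicate 1 and 18734923 in replicate 2, inside intron 12 of 22 and an L1PA6 repeat, with a score of 39.52 (rank 6115) in replicate 1 and 95.82 (rank 3686) in replicate 2. It lay 225603 bp and 225650 bp downstream of the deposited TSS. Neighbouring summits at 18753325 and 18753331 in intron 13 scored 29.99 and 35.33 (ranks 7964 and 10015), and those at 18458158 and 18458061, upstream of the internal promoters, scored 31.01 and 31.08 (ranks 7729 and 11160). These 3 sites were within the highest 24.5% of replicate 1 and the highest 27.6% of replicate 2.

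The other 4 recurrent HDAC9 sites were weak. Their scores ran from 5.121 to 10.04 in replicate 1 and from 7.617 to 13.08 in replicate 2. One of them, at 18667716 and 18667732, lay in the 3′ UTR of a short transcript with 13 exons. The pair at 18446020 and 18445864 was the most widely separated of the member sites, at 156 bp.

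At the internal HDAC9 promoters printed above, each replicate had a summit and the summits were not shared. Replicate 1 had one at 18496085, 177 bp upstream of a TSS, with a score of 4.501 (rank 28511). Replicate 2 had one at 18495675, 35 bp upstream of another TSS, with 8.345 (rank 27021). They lay 410 bp apart, beyond the limit of 200 bp, and both were in the lower part of their lists, so KAT2B remained the one member with a recurrent site within 10 kb of a deposited TSS. Other unshared HDAC9 summits were at 18482103 in replicate 1 and at 18230462, 18666344 and 18680780 in replicate 2, the last with a score of 31.08 (rank 11160).

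The deposited name follows the nearest TSS, and in these long genes it often was another gene's. Counting summits inside the RefSeq span of each gene gave 30 in replicate 1 and 35 in replicate 2, with 23 recurrent sites, 12 of them under another gene's name. They lay in the same number of genes, 3, but HDAC4 took the place of HDAC2 (20.8% of protein-coding genes had a recurrent site inside). HDAC9 held 13, KAT2B 5 and HDAC4 5. Per 100 kb of gene this was 4.39 at KAT2B, 1.42 at HDAC9 and 1.41 at HDAC4, against 0.733 over the spans of all 20037 protein-coding genes.

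HDAC4 encodes a class IIa deacetylase whose movement between cytoplasm and nucleus is controlled by phosphorylation. Its 353482 bp on chromosome 2 held 6 summits in replicate 1 and 7 in replicate 2, deposited under the microRNA genes MIR4441 and MIR4269 and the non-coding gene MGC16025. The strongest recurrent site had summits at 239243512 and 239243518 in intron 2 of 26, with a score of 74.90 (rank 3019) and 174.9 (rank 1584). Summits with still higher scores, 146.8 at 239195305 in replicate 1 (rank 1037) and 263.5 at 239195509 in replicate 2 (rank 753), were 204 bp apart and so just outside the limit. They lay at the start of MGC16025.

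A recurrent HDAC4 site lay beside an internal start of that gene. Summits at 239275209 and 239275190, annotated to a CpG island in intron 2, scored 23.14 (rank 10113) and 36.31 (rank 9930). They were 428 bp and 409 bp upstream of the RefSeq start that follows the HDAC4 sequence printed above, whereas their deposited nearest TSS was that of MIR4269, 30253 bp and 30272 bp away. The other recurrent HDAC4 sites were at 239098543 and 239098577 in intron 16 (scores 22.42 and 84.93), at 239211934 and 239211877 in intron 3 (13.33 and 27.89) and at 239252223 and 239252200 in intron 2 (12.14 and 11.50). No summit fell in the first 126440 bp of the gene from its 5′ end in either list.

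**Figure D3:**
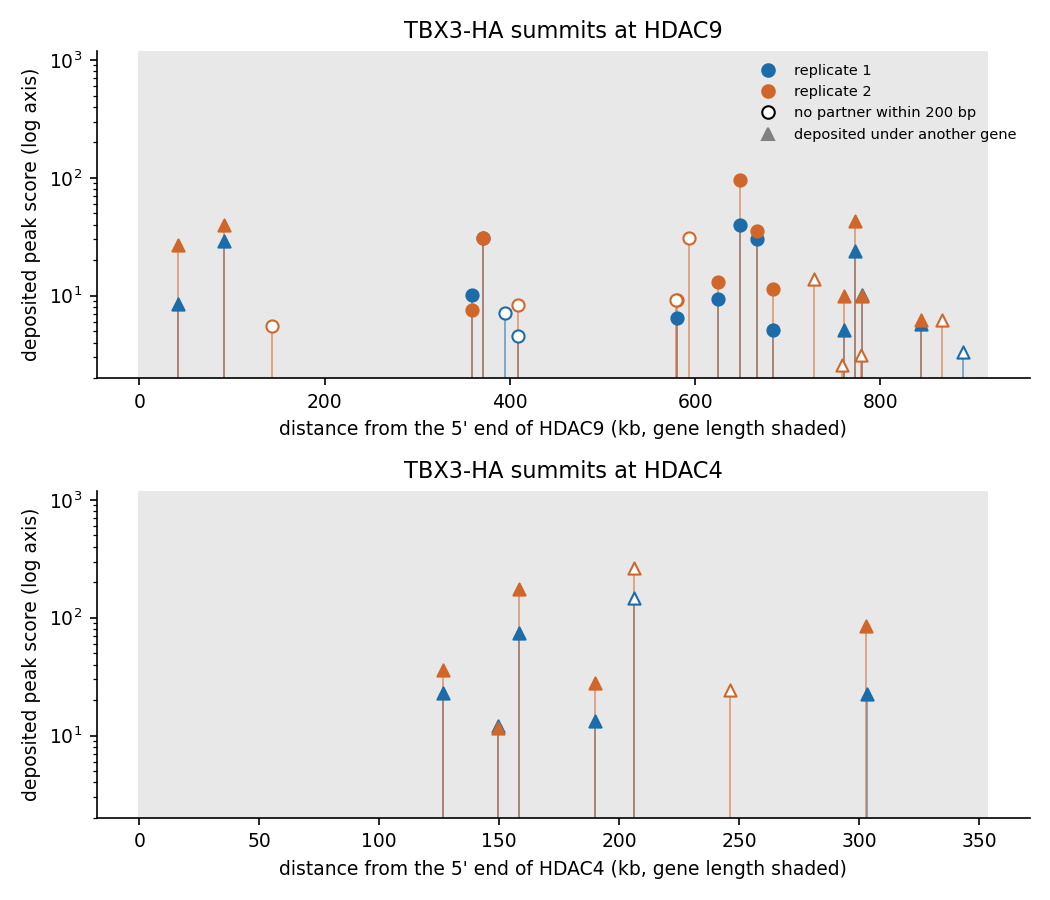
Points are summits at their distance in kb from the RefSeq 5′ end of HDAC9 (upper panel) and HDAC4 (lower panel), with the deposited score on a log axis that is read only within a replicate; filled points have a partner within 200 bp and triangles carry another gene's name. All HDAC4 points are triangles, and the highest HDAC4 points, at 146.8 and 263.5, are open because they lie 204 bp apart.

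In HDAC9 the 6 recurrent sites under other names were at the ends of the gene. At the 5′ end, sites at 18129024 and 18128995 and at 18178387 and 18178434 were deposited under MIR1302-6. At the 3′ end, 4 sites in introns 20 and 21 of 22 were deposited under TWIST1, which encodes a transcription factor of the epithelial-mesenchymal transition and lies beyond the 3′ end of HDAC9. The strongest of these had summits at 18859486 and 18859484, 2 bp apart, with a score of 24.02 (rank 9739) and 43.07 (rank 8423). HDAC7, the remaining class IIa gene among the 10, held no summit. The nearest was 29248 bp from the gene in replicate 1 and 206173 bp in replicate 2. Altogether 5 of the 10 genes, KAT2A, CREBBP, HDAC1, HDAC3 and HDAC7, had no summit by name or inside the gene.

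Relative to their lists, member sites moved both ways between the replicates. Of the 14 recurrent sites under a member's name, 9 took a higher place in replicate 2 and 5 a higher place in replicate 1. The median member peak had a score of 10.04 in replicate 1, below the median of 12.41 over all peaks, and of 26.12 in replicate 2, above the 13.92 over all. Scores above the list's median were held by 8 of 19 member peaks in replicate 1 and 12 of 20 in replicate 2. The median thus stood on different sides of the whole list in the replicates, and beyond the KAT2B site in intron 2 the member peaks were not uniformly strong.

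**Figure D4:**
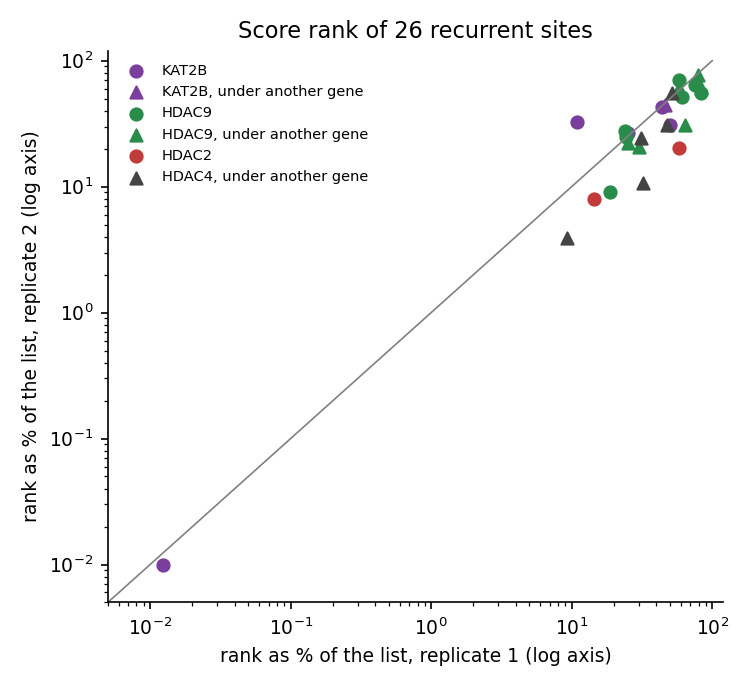
Each of the 26 recurrent sites, under a member's name or inside its gene, is placed by its rank as a percentage of the list in replicate 1 (x axis) and replicate 2 (y axis), both on log scales where lower is stronger, with the line of equal place. The KAT2B site in intron 2 lies at 0.0123% and 0.00988%, far from the others, which start at 9.30% and 3.91% at HDAC4.

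The wider machinery was described from 6 lists holding 81 further genes. Recurrent sites carried the name of 26 of them (32.1%, against 28.6% of protein-coding genes), and 10 had one within 10 kb of a TSS (12.3%, against 10.1%). By list this was 5 of 15 other acetyltransferases, 3 of 12 other deacetylases, 6 of 19 SAGA and ATAC subunits, 8 of 26 subunits of NCoR, SIN3, NuRD and CoREST, 2 of 4 MEF2 genes and 2 of 5 acetyl-lysine readers. ZZZ3, a subunit of the ATAC complex, had a recurrent site in intron 4 of 13 with ranks of 414 and 344. MEF2A, a partner of the class IIa deacetylases, had intergenic summits 57319 bp and 57337 bp upstream of its TSS (ranks 1747 and 1385). TBL1XR1, an NCoR subunit, had an intergenic site with ranks of 2901 and 1648. KAT5, the acetyltransferase TIP60, had ranks of 3172 and 2276 at intergenic summits 14886 bp and 14927 bp upstream of its TSS. None of these reached the place of the KAT2B site. HDAC11 and KAT5 were the 2 other deacetylase or acetyltransferase genes with a recurrent site within 10 kb of a TSS. That of KAT5 was a separate, weaker promoter site, 34 bp from the TSS in replicate 1 (rank 9380) and 25 bp in replicate 2 (rank 8845).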

How the data were processed

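ChIP-seq peak lists of the 2 TBX3-3xHA samples were used. Per the file headers, the authors annotated a file of peak summits from each replicate with HOMER's annotatePeaks.pl against hg38, without pooling. The deposited peak score has no stated scale and was used to rank peaks within a list, equal scores sharing the better rank. The deposited signed distance is to the nearest TSS, in bp. The submitters' processing notes name FastQC 0.11.7, cutadapt 2.8, Bowtie2 2.3.5, MACS2 2.1.2 and SAMtools 1.9, with no role given. Chromatin was sheared to 200 to 400 bp, per the labels' protocols, so a pairing limit of 200 bp is about 1 fragment. Read depth and the caller's control and threshold are not given in the sources used here.

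Summits were paired as mutual nearest neighbours with Python 3.11.15, pandas 2.3.3 and numpy 2.4.6, after a test on simulated data. Gene spans and promoter windows are RefSeq's (GRCh38.p14). Of 31887 replicate 1 peaks with a matched gene, 98.4% implied a TSS within 5000 bp of that gene's span. The members, gene lists and settings were chosen with earlier results of these data known. All members are named, with the strongest recurrent site of each and all sites within 10 kb of a TSS. All KAT2B sites are given, and 4 of the 5 other machinery genes of lowest rank sum; the remaining one is not reported here. Other sites were chosen after their values were seen. No test was run. Alternatives covered the pairing distance, score limits, gene spans, single replicates, TSS distance and satellites.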

Additional observations from a re-analysis of the deposited data

How the results depend on the processing

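Of 42 alternative values, 29 stayed close to the reported one and 13 moved; the cause was not tested, except that fewer peaks or another distance leave fewer or more sites. The 14 recurrent sites became 8 within 50 bp and 9 with scores at or above the median. They became 2 among the 5000 highest scores of each list and 23 by gene span. No site can recur in a single list, so there all member peaks were counted, 19 in replicate 1 and 20 in replicate 2. These counts were classed among the 29 values, although they do not measure recurrence. The recurrent share moved to 42.1% and 40.0% in replicates 1 and 2 within 50 bp. With scores at or above the median it was 100% in replicate 1 (9 of 9) and 75% in replicate 2 (9 of 12). The 1 gene with a recurrent site within 10 kb of a TSS became 2 within 500 bp and 2 by gene span. It became 0 among the 5000 highest scores and 3 within 50 kb. Counting any peak in either list alone also gave 2. The number of genes with a recurrent site stayed at 3, and was 2 among the 5000 highest scores. Genes with any peak numbered 4 in replicate 1 and 3 in replicate 2. KAT2B kept rank 4 in both lists without satellites and among recurrent peaks. No paired analysis was possible because the result comes from no test and only the ChIP samples were used.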

Other observations

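Between the 3′ end of HDAC9 and the TWIST1 TSS, 4 further recurrent sites were deposited under TWIST1 and annotated as intergenic. The strongest had summits at 19095371 and 19095332 on chromosome 7, 22301 bp and 22340 bp from the TWIST1 TSS, with a score of 76.52 (rank 2905) in replicate 1 and 135.4 (rank 2287) in replicate 2. These ranks were higher than those of any recurrent site inside HDAC9, where the best were 6115 and 3686.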
